A study of Homo sapiens with 24 samples.

Results

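The BET degrader BETd-246 was set directly against the BET inhibitor BETi-211 in MDA-MB-157, an established human triple-negative breast cancer cell line. The comparison used 4 of the 24 RNA sequencing libraries of the series, 2 with each compound, chosen by their labels for line and treatment. It was made across all 14114 genes of the table, with the level in 4 control libraries of the line shown beside each difference. All cells were exposed for 3 h. BETd-246 was given at 100 nM and BETi-211 at 1000 nM, so the compounds were not compared at the same concentration, and compound and dose cannot be told apart. The controls were 2 libraries with DMSO (0.05% v/v) and 2 with thalidomide (1000 nM), both named as controls by the series description. The replicates of a group were described as independent biological replicates. The other 2 lines of the series, MDA-MB-231 and MDA-MB-468, were used to ask where MDA-MB-157 differed from them. Their libraries were also part of the fit, so their spread entered every SE and p-value.

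BET proteins are readers of acetylated chromatin. Their paired bromodomains hold acetylated histone tails, and they help bring P-TEFb, the kinase that releases paused RNA polymerase II, to promoters and enhancers. An inhibitor occupies the bromodomains and leaves the protein in the cell, while a degrader brings the protein to a ubiquitin ligase, after which the proteasome destroys it. Thalidomide binds cereblon, the substrate receptor of one such ligase. BET compounds are best known in cancer cells for their action on MYC, on survival genes of the BCL2 family and on HEXIM1, which is often used as a readout of BET inhibition.

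FPKM sums of the 8 MDA-MB-157 libraries were 471245 to 515793, and the 2 libraries of each compound correlated at 0.9975 with BETi-211 and 0.9980 with BETd-246 across genes (Pearson, log2 scale). The median gene stood at 9.80 to 10.03 FPKM in the controls, and in the treated libraries it was lower, at 9.03 to 9.15 FPKM (BETi-211) and 8.41 to 8.56 FPKM (BETd-246). FPKM is relative to the total of each library, so these values do not measure RNA per cell. DMSO replicate 1 and BETi-211 replicate 1 stood apart in small nucleolar RNA, with 1.14% and 1.20% of the FPKM sum against 0.660% to 0.888% in the other 6 libraries. Mitochondrial transcripts made up 8.02% to 10.4% of the sum in the controls, and of the treated libraries 10.8% to 12.1% (BETi-211) and 9.66% to 11.98% (BETd-246). The markers of the line were mixed: KRT18 and KRT8, keratins of simple epithelia, had control means of 303 and 165 FPKM, VIM and SPARC, which mark mesenchymal cells, had 1996 and 1050.2 FPKM, and EPCAM and CDH1, which mark epithelial junctions, had 1.75 and 0.406 FPKM. Of the 3 receptor genes that define the triple-negative label only ERBB2 was analysed, at 17.7 FPKM in the controls. Of 10 immune markers looked for, only CD14 and CSF1R were in the table, and the monocyte marker CD14 stood at 56.6 FPKM. Of 10 endothelial and fibroblast markers 7 were in the table, and the fibroblast collagen COL3A1 stood at 354 FPKM. In bulk libraries, fewer cells of a type and less RNA per cell cannot be told apart.

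The degrader left many transcripts much lower than the inhibitor did and few much higher. TIPARP, RGS2, HEXIM1 and ID2 were lowest relative to the inhibitor, and MYC, MCL1 and BRD2 were each about 4-fold lower. Among protein-coding genes, only EGR1 and ARC were at least 2-fold higher with the degrader on the log2(FPKM + 1) scale. With limma and a Benjamini-Hochberg adjusted p below 0.05, 6559 of 14114 genes were called (46.5%), 3415 higher (24.2%) and 3144 lower with BETd-246 (22.3%). All differences are of log2(FPKM + 1), a scale on which those of low genes come out too small. A fold of 2 was passed by 603 lower genes (4.27%) and 21 higher genes (0.149%), and a fold of 4 by 63 lower and 5 higher genes. Counts below for gene groups between the compounds are to be read beside these shares, 24.2% higher and 22.3% lower. Most calls were small: 3337 of the higher and 1891 of the lower genes differed by less than 1.5-fold. Across all genes the median log2 difference was 0.04, the 5th percentile -0.90 and the 95th percentile 0.32.

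**Figure D1:**
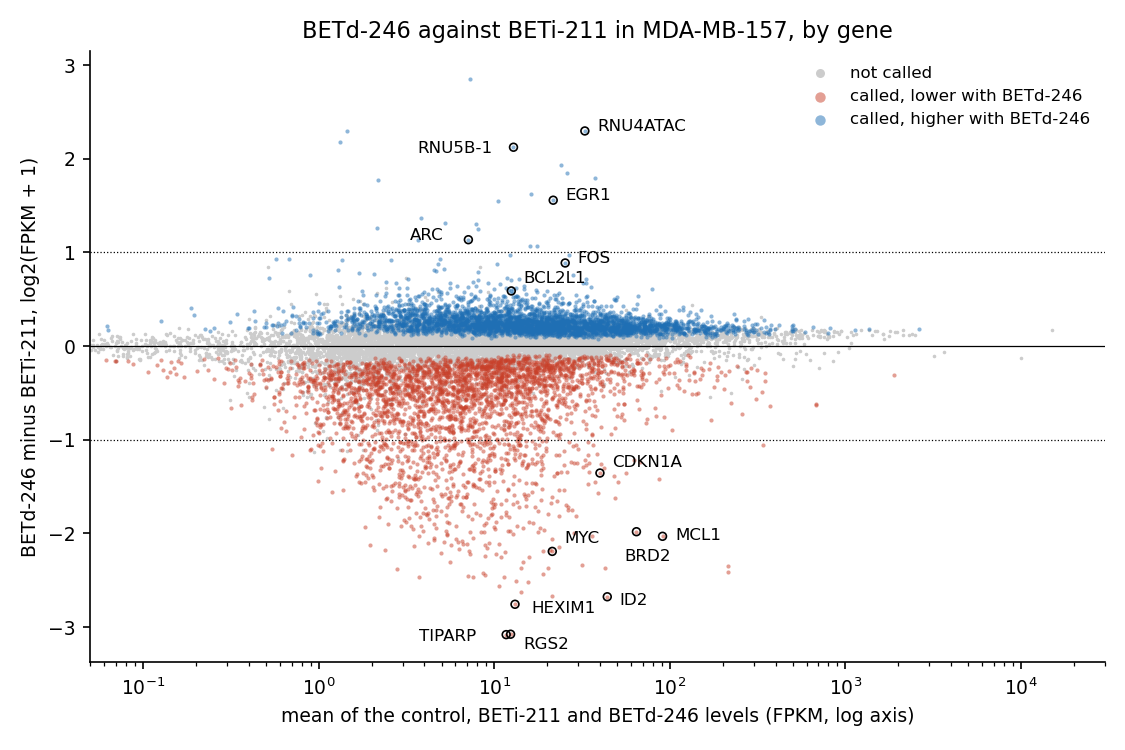
Each point is 1 of the 14114 genes, with its mean FPKM over controls and both compounds on a log axis and the log2(FPKM + 1) difference of BETd-246 minus BETi-211 on the vertical axis. Red and blue points are called genes, the dotted lines mark a fold of 2, and the tail below the lower line (603 genes) is far denser than the one above the upper line (21 genes).

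The balance of small calls depended on how libraries were scaled. Higher genes were 52.1% of calls with the deposited values, 64.7% after quantile normalization, 67.5% with median-of-ratios scaling and 43.5% with each column scaled to its total. The number of higher calls was 2048 without BETi-211 replicate 1 and 1964 without BETd-246 replicate 2, against 3415 with all libraries. The number at least 2-fold lower was 528 to 626 under these scalings, and no gene called with the deposited values was called in the opposite direction under the scalings, the filter, the pseudocount or the left-out libraries tried. Of the 603, at least 597 were still called when any 1 MDA-MB-157 library was left out.

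Most genes with large negative differences had controls between the 2 compounds. Of the 603 genes at least 2-fold lower with BETd-246, the control mean lay between the compound means in 446 (74.0%), above both in 133 (22.1%) and below both in 24 (3.98%). In 374 of the 603 (62.0%) all 4 control libraries lay between the 2 compounds. The control mean lay between the compound means in 4940 of all 14114 genes and in 52.3% of the 3144 genes called lower. All 4 control libraries did so in 28.9% of those 3144, which include the 603, and this share was not taken over all 14114 genes. A wider gap between the compounds leaves more room for the controls between them, and this was not allowed for. The median of these 603 genes was 0.40 above the controls with BETi-211 and -1.02 with BETd-246 on the log2 scale. Of the 21 genes at least 2-fold higher, 15 had control means below both compounds and 6 had control means between them. Comparisons of each compound with the controls share libraries with the direct comparison, so their calls are given beside it and not as separate support for it. Against the controls, 7263 genes were called with BETd-246 (51.5%), 2685 higher (19%) and 4578 lower (32.4%), with 593 at least 2-fold lower (4.2%) and 36 at least 2-fold higher (0.255%). With BETi-211, 6471 genes were called (45.8%), 2107 higher (14.9%) and 4364 lower (30.9%), with 129 at least 2-fold lower (0.914%) and 130 at least 2-fold higher (0.921%).

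TIPARP, a mono-ADP-ribosyltransferase and target of the aryl hydrocarbon receptor, had the lowest difference. Its FPKM was 7.87, 8.91, 9.96 and 9.501 in the controls (DMSO 1 and 2, then thalidomide 1 and 2, an order kept below), 23.6 and 24.5 with BETi-211 and 2.13 and 1.80 with BETd-246 (replicates 1 and 2). Every inhibitor library lay above all controls and every degrader library below them, with a log2 difference of -3.08 ± 0.07 between the compounds (SE, 2 against 2 libraries as in all direct differences below, adjusted p = 1.34e-14). Each SE takes its spread from the fit of all 24 libraries. RGS2, which speeds the shut-off of G protein signals, had 4.49, 5.37, 4.99 and 4.81 FPKM in the controls, 29.9 and 29.3 with BETi-211 and 2.54 and 2.72 with BETd-246, a log2 difference of -3.08 ± 0.09 (adjusted p = 1.35e-13). HEXIM1, which holds P-TEFb inactive together with 7SK RNA, had 7.26, 7.16, 7.55 and 8.23 FPKM in the controls, 27.6 and 29.2 with BETi-211 and 3.37 and 3.35 with BETd-246. Its log2 difference was -2.76 ± 0.06 (adjusted p = 1.34e-14). In RGS2 and HEXIM1, as in TIPARP, the compounds lay on opposite sides of the controls without overlap, and each compound was called against the controls in its own direction. For HEXIM1 the log2 difference from the controls was 1.78 with BETi-211 (adjusted p = 5.18e-13) and -0.97 with BETd-246 (adjusted p = 1.56e-10).

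ID2, a helix-loop-helix protein that blocks differentiation factors, had 41.4, 41.4, 43.0 and 43.6 FPKM in the controls, 76.5 and 79.8 with BETi-211 and 11.3 and 11.5 with BETd-246 (log2 difference -2.68 ± 0.06, adjusted p = 1.34e-14). ING1, a reader of methylated histone H3, went from 41.0 and 42.0 with the inhibitor to 5.66 and 5.72 with the degrader, around controls of 16.4 to 17.6. Its log2 difference was -2.67 ± 0.07. KLHL15, a substrate adaptor of a cullin ubiquitin ligase, had 28.4 and 28.8 FPKM with BETi-211 and 3.58 and 4.002 with BETd-246 around controls of 9.24 to 10.3. BAMBI, a decoy receptor that dampens TGF-beta signals, had 19.4 and 19.2 FPKM with BETi-211 and 2.58 and 2.29 with BETd-246 around controls of 9.78 to 10.4. All 4 genes lay above the controls with the inhibitor and below them with the degrader.

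TBCC, SGK1 and ZNF627 reached a similar difference from the degrader side alone or nearly so. TBCC, a tubulin folding cofactor, had 21.1, 20.5, 21.1 and 20.7 FPKM in the controls, 23.3 and 22.3 with BETi-211 and 3.30 and 3.01 with BETd-246, a log2 difference of -2.52 ± 0.08 between the compounds. Its log2 difference from the controls was 0.12 with BETi-211 (adjusted p = 0.173) and -2.40 with BETd-246. SGK1, a kinase induced by serum and glucocorticoids, had 18.3, 17.9, 17.6 and 18.7 FPKM in the controls, 18.6 and 19.9 with the inhibitor and 2.56 and 2.58 with the degrader (log2 difference -2.50 ± 0.06). The zinc finger gene ZNF627 had 9.37 to 10.5 FPKM in the controls, 11.1 and 12.01 with the inhibitor and 1.19 and 1.36 with the degrader (log2 difference -2.47 ± 0.06). Degrader libraries of the 3 genes lay below all others, and the inhibitor differed from the controls in ZNF627 by 0.21 (adjusted p = 0.00479) and in SGK1 by 0.08 (adjusted p = 0.25).

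**Figure D2:**
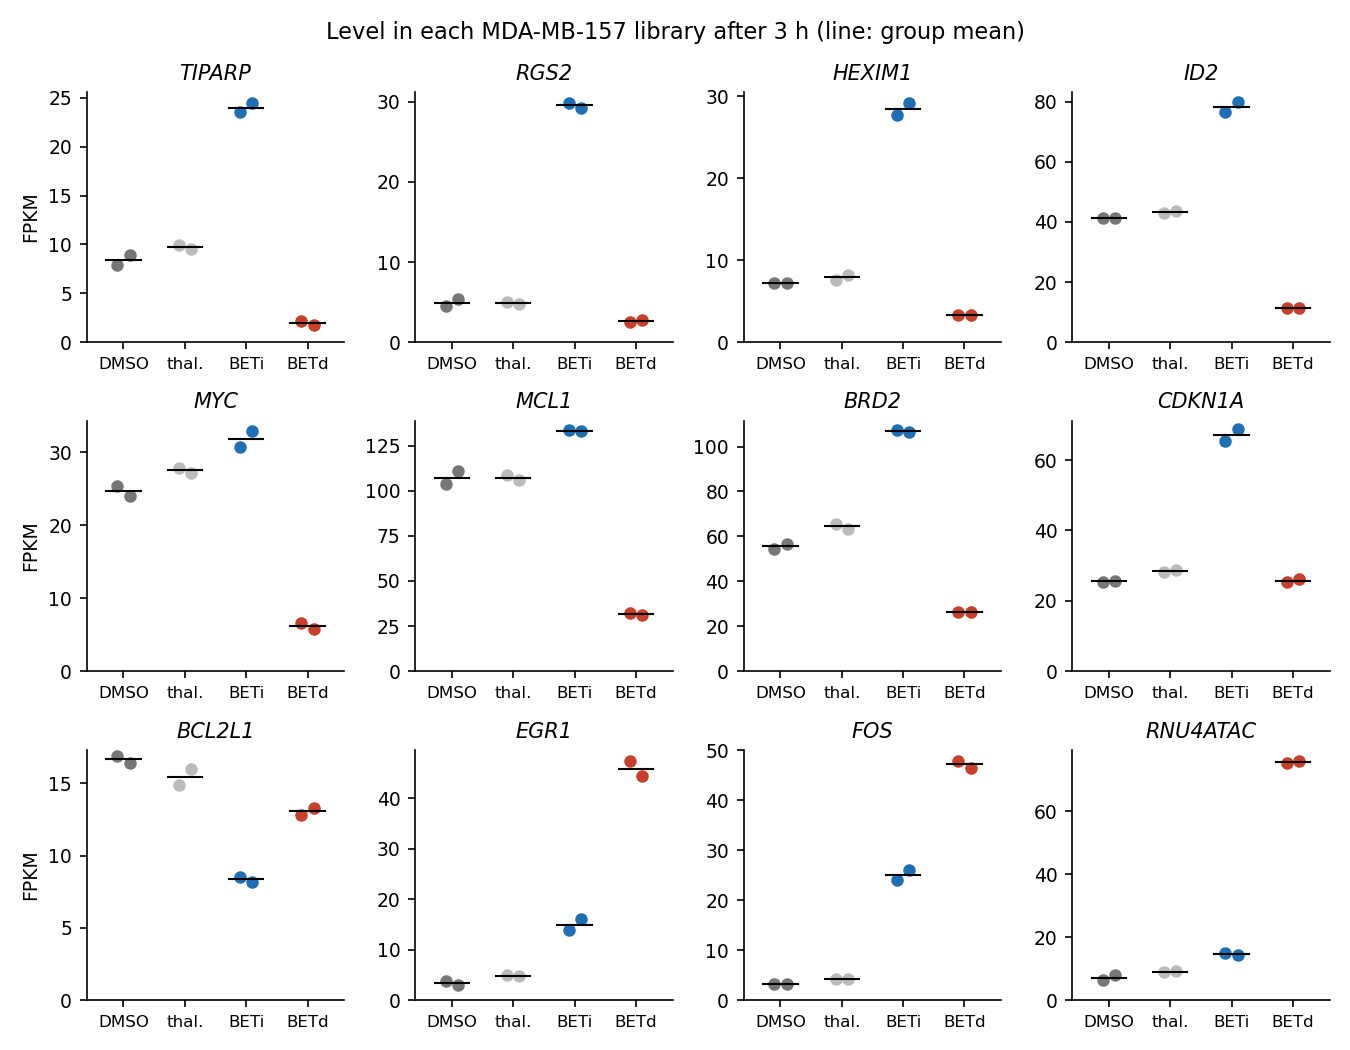
FPKM of 12 genes in each of the 8 MDA-MB-157 libraries after 3 h, with DMSO and thalidomide in grey, BETi-211 in blue, BETd-246 in red and a line at each group mean (2 libraries a group, each axis from 0). From TIPARP to BRD2 the red points lie below the controls and the blue points above them, in CDKN1A only the blue points leave the controls, and in EGR1, FOS and RNU4ATAC the red points lie above all others.

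The promoters of HEXIM1 and RGS2 are shown because both genes lay on opposite sides of the controls with the 2 compounds. Each sequence is the 150 bases before the RefSeq transcript start (GRCh38.p14), 5′ to 3′ on the gene's strand, HEXIM1 at chr17:45148325-45148474 (plus strand) and RGS2 at chr1:192808889-192809038 (plus strand). Capitals mark TATAAA and CCAAT on either strand (CCAAT reads ATTGG on the reverse), and no marked motif overlaps another.
HEXIM1: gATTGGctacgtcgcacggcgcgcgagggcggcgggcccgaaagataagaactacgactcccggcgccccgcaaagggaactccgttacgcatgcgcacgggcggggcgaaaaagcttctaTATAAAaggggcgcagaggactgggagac
RGS2: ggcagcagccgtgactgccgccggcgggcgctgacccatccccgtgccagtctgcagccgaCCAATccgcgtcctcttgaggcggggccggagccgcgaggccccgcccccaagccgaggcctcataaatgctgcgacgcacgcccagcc
HEXIM1 has TATAAA at -29 to -24 and CCAAT at -149 to -145 from the start, and RGS2 has CCAAT at -89 to -85. Among the 6767 genes with 1 RefSeq window, TATAAA was found on either strand within the 250 bases before the start in 4.67%, and in 9.91% of the 333 genes at least 2-fold lower with BETd-246. CCAAT was found in 37.0% of all 6767 and in 52.9% of the 333. TGACG was found in 31.8% and 33.9%, GGGCGG in 71.4% and 76.3%, CACGTG in 9.21% and 9.91%, and the CArG box, the site of serum response factor, in 0.842% and 0.601%. These shares are descriptions of letters in a window and were not tested.

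BRD2, a BET gene itself, differed most among the genes of the compounds' own targets and ligase. It had 54.4, 56.8, 65.4 and 63.4 FPKM in the controls, 107 and 107 with BETi-211 and 26.4 and 26.4 with BETd-246, a log2 difference of -1.98 ± 0.05 (adjusted p = 1.81e-14). The inhibitor libraries lay above all controls and the degrader libraries below them. BRD3, another BET gene, had control levels of 3.13 to 3.71 FPKM, 3.82 and 3.82 with BETi-211 and 2.78 and 2.82 with BETd-246 (log2 difference -0.34 ± 0.09, adjusted p = 0.00563). CRBN, which encodes cereblon, was lower than the controls with both compounds, at 18.6, 18.3, 16.5 and 16.7 FPKM in the controls, 13.96 and 14.2 with BETi-211 and 15.2 and 15.02 with BETd-246. Its difference between the compounds was not called (log2 0.09 ± 0.05, adjusted p = 0.141), with a 95% interval from -0.01 to 0.20. Of the 12 measured BET, cereblon ligase and neosubstrate genes, 4 were called higher (33.3%) and 2 lower (16.7%). CUL4B, a scaffold of cereblon-type ligases, was among the higher ones (log2 0.23 ± 0.04), as was ZFP91, a neosubstrate of cereblon (log2 0.26 ± 0.04), which stood below its controls with both compounds.

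HEXIM1, MEPCE, CCNT1 and ELL were the 4 elongation genes at least 2-fold lower with the degrader. MEPCE, which caps and stabilises 7SK RNA, had 33.6, 31.8, 32.5 and 35.0 FPKM in the controls, 42.5 and 42.8 with BETi-211 and 11.4 and 11.5 with BETd-246 (log2 difference -1.81 ± 0.05, adjusted p = 3.73e-14). CCNT1, the cyclin of P-TEFb, had 20.4 to 21.8 FPKM in the controls, 16.7 and 16.9 with the inhibitor and 7.51 and 7.45 with the degrader (log2 difference -1.07 ± 0.05). MEPCE lay on both sides of the controls, while CCNT1 was below them with both compounds and lowest with the degrader. CDK9, the kinase itself, was named after its values were seen, with means of 5.80 FPKM in the controls, 5.99 with BETi-211 and 3.59 with BETd-246 (log2 difference -0.61 ± 0.11). RN7SK, the 7SK RNA itself, was not called, with means of 12207 FPKM in the controls, 15546 with BETi-211 and 17435 with BETd-246 (log2 difference 0.18 ± 0.19, 95% interval -0.22 to 0.58). Of 18 measured P-TEFb, 7SK and elongation genes, 7 were called lower and 6 higher, and 3 higher without BETi-211 replicate 1.

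MYC, the growth-promoting transcription factor, had 25.3, 24.01, 27.9 and 27.1 FPKM in the controls, 30.7 and 32.9 with BETi-211 and 6.61 and 5.79 with BETd-246. The degrader libraries lay below every other library and the inhibitor libraries above every control, with a log2 difference of -2.19 ± 0.08 between the compounds (adjusted p = 9.96e-13). The log2 difference of MYC from the controls was 0.28 with BETi-211 (adjusted p = 0.00215) and -1.91 with BETd-246 (adjusted p = 6.61e-13). MXD1, which competes with MYC for their partner MAX, had 2.73, 3.09, 3.37 and 3.41 FPKM in the controls, 7.49 and 7.48 with the inhibitor and 1.14 and 1.19 with the degrader (log2 difference -1.97 ± 0.05). MYCL, a MYC relative, was lowly expressed, at 0.563 to 0.715 FPKM in the controls, 1.72 and 1.75 with BETi-211 and 0.372 and 0.470 with BETd-246. In the MYC and MAX network, of 11 genes measured, 4 were called lower and 1 higher.

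EGR1, ARC and FOS, which respond quickly to growth signals and activity, were the protein-coding genes furthest above the inhibitor. EGR1 had 3.74, 3.10, 4.98 and 4.76 FPKM in the controls, 13.8 and 16.1 with BETi-211 and 47.3 and 44.4 with BETd-246, a log2 difference of 1.56 ± 0.17 (adjusted p = 1.72e-06). ARC had 0.470, 0.597, 0.692 and 0.858 FPKM in the controls, 5.89 and 6.30 with BETi-211 and 14.4 and 14.8 with BETd-246 (log2 difference 1.14 ± 0.07, adjusted p = 2.11e-09). FOS had 3.26, 3.21, 4.25 and 4.31 FPKM in the controls, 24.1 and 26.0 with the inhibitor and 47.8 and 46.5 with the degrader (log2 difference 0.89 ± 0.21, adjusted p = 0.00232). In these 3 genes both compounds lay above every control and the degrader above the inhibitor, with no overlap.

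The other immediate-early genes went the opposite way. Of the 19 measured, which include EGR1 and ARC but not the AP-1 subunits, 17 were called lower with BETd-246 (89.5%, against 22.3% of all genes), 7 of them by 2-fold or more, and the list's median log2 difference was -0.75 against 0.04 over all genes. NR4A3, a nuclear receptor without a known hormone, had 1.34, 1.41, 1.60 and 1.498 FPKM in the controls, 6.24 and 6.56 with BETi-211 and 1.03 and 0.888 with BETd-246 (log2 difference -1.92 ± 0.07). BTG1, an antiproliferative gene, had 5.83 to 6.12 FPKM in the controls, 12.5 and 13.1 with the inhibitor and 2.05 and 2.33 with the degrader (log2 difference -2.11 ± 0.06). IER5 had 25.9 to 27.5 FPKM in the controls, 30.5 and 31.3 with the inhibitor and 6.71 and 6.64 with the degrader (log2 difference -2.05 ± 0.04). All 3 lay above the controls with the inhibitor and below them with the degrader. Against the controls, 10 of the 19 were called higher and 7 lower with BETi-211, and 4 higher and 14 lower with BETd-246. Over all genes, 14.9% were higher and 30.9% lower than the controls with BETi-211, and 19% higher and 32.4% lower with BETd-246.

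Among the 10 measured AP-1 subunits, whose dimers carry growth and stress signals to DNA, 2 were called higher (1 without BETd-246 replicate 2) and 4 lower. JUND had 19.4, 16.6, 24.02 and 22.98 FPKM in the controls, 43.7 and 43.5 with BETi-211 and 18.97 and 17.03 with BETd-246 (log2 difference -1.23 ± 0.07, adjusted p = 2.39e-10). ATF3, a stress-induced factor, had 3.11, 3.61, 3.48 and 3.39 FPKM in the controls, 10.3 and 10.4 with the inhibitor and 3.76 and 2.83 with the degrader (log2 difference -1.41 ± 0.09). In both, the inhibitor libraries lay above all others and the degrader libraries overlapped the controls. FOSL2 was below the controls with both compounds and lower with the degrader (log2 difference -0.45 ± 0.04, means 41.9, 24.7 and 17.9 FPKM in the controls, BETi-211 and BETd-246).

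The promoters of EGR1 and FOS are shown because these genes were higher with the degrader while most of the group was lower. Each is again the 150 bases before the RefSeq start (GRCh38.p14), EGR1 at chr5:138465329-138465478 (plus strand) and FOS at chr14:75278678-75278827 (plus strand). Capitals mark CArG boxes, the letters TGACG on either strand and the TATA box of the promoters above, and no marked motif overlaps another.
EGR1: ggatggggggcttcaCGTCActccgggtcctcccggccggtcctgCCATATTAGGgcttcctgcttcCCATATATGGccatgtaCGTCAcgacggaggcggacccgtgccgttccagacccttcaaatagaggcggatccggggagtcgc
FOS: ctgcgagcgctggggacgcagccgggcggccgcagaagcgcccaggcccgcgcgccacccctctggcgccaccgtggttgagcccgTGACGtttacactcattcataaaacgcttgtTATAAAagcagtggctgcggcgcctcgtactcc
EGR1 holds CArG boxes at -105 to -96 and -83 to -74 and TGACG at -135 to -131 and -66 to -62, and FOS holds TGACG at -64 to -60 and the TATA box at -33 to -28. The CArG box was found in 12 of 1714 genes called higher with BETd-246 (0.700%) and in 0.842% of all 6767 windows. Only the 250 bases before each start were searched, so a CArG box of FOS further out would not be seen.

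The brakes on MAP kinase signals, which growth signals induce and which then dephosphorylate or block the cascade, were mostly lower with the degrader. Of 14 measured MAP kinase phosphatases and Sprouty or SPRED genes, 11 were called lower (78.6%, against 22.3% of all genes) and 1 higher (0 in limma with column-total scaling), with a median log2 difference of -0.91. DUSP1 had 13.8, 13.1, 14.6 and 15.5 FPKM in the controls, 39.8 and 39.6 with BETi-211 and 6.68 and 7.06 with BETd-246 (log2 difference -2.37 ± 0.06, adjusted p = 6.47e-14). DUSP5, which acts on nuclear ERK, had 5.29, 5.34, 5.63 and 5.21 FPKM in the controls, 8.72 and 9.16 with the inhibitor and 1.62 and 1.45 with the degrader (log2 difference -1.97 ± 0.06). DUSP14 had 11.9 to 13.2 FPKM in the controls, 26.8 and 27.5 with the inhibitor and 9.19 and 9.30 with the degrader (log2 difference -1.46 ± 0.05). All 3 lay above the controls with the inhibitor and below them with the degrader, without overlap. All 14 genes were called lower than the controls with BETd-246, while 6 were called higher and 7 lower with BETi-211. Of all genes, 32.4% were called lower than the controls with BETd-246, and 14.9% higher and 30.9% lower with BETi-211. The 1 higher gene, named after its values were seen, was DUSP16 (means 3.85, 1.85 and 2.25 FPKM in the controls, BETi-211 and BETd-246, log2 difference 0.19 ± 0.05).

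The survival genes split between MCL1 and the others. MCL1, a short-lived guard against apoptosis, had 104, 111, 109 and 106 FPKM in the controls, 134 and 133 with BETi-211 and 32.3 and 31.4 with BETd-246, a log2 difference of -2.03 ± 0.05 (adjusted p = 4.05e-14). The degrader libraries lay far below the controls and the inhibitor libraries above them. BCL2L1, which encodes BCL-XL, had 16.9, 16.4, 14.9 and 15.96 FPKM in the controls, 8.55 and 8.16 with BETi-211 and 12.8 and 13.3 with BETd-246 (log2 difference 0.59 ± 0.04, adjusted p = 7.57e-09). CFLAR, an inhibitor of caspase 8, had 15.7 to 18.1 FPKM in the controls, 10.7 and 10.97 with the inhibitor and 14.5 and 15.7 with the degrader (log2 difference 0.44 ± 0.04). In BCL2L1 and CFLAR both compounds lay below the controls and the inhibitor lowest. Of the 9 measured survival genes, 6 were called higher with the degrader, against 24.2% of all genes, and MCL1 was the 1 called lower.

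Pro-death genes were called lower with the degrader in 10 of 20 (50%, against 22.3% of all genes) and higher in 1 (5%, against 24.2%). BCL2L11, which encodes the BH3-only protein BIM, had 3.29, 3.16, 4.21 and 4.03 FPKM in the controls, 8.15 and 8.06 with BETi-211 and 1.497 and 1.92 with BETd-246 (log2 difference -1.75 ± 0.15, adjusted p = 9.95e-08). PMAIP1, which encodes the MCL1-binding protein NOXA, had 21.2, 22.1, 20.8 and 19.7 FPKM in the controls, 33.7 and 35.0 with BETi-211 and 12.5 and 13.3 with BETd-246 (log2 difference -1.35 ± 0.06). In both genes the inhibitor lay above all controls and the degrader below all controls. FADD, the adaptor of death receptors, was below its controls of 6.29 to 8.05 FPKM with both compounds, at 3.91 and 3.99 with BETi-211 and 1.01 and 1.03 with BETd-246 (log2 difference -1.30 ± 0.07). The list's median log2 difference was -0.11, and the higher calls were 0 in limma without BETd-246 replicate 2 and 2 without BETd-246 replicate 1 (2 were higher at an unadjusted p below 0.05 with all libraries).

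p53 target genes and stress response genes were mostly lower with the degrader. Of 21 measured p53 targets, which carry cell cycle arrest, DNA repair and metabolic functions, 16 were called lower (76.2%, against 22.3% of all genes) and 2 higher (9.52%, against 24.2%, and 1 when any of the 4 treated libraries was left out), with a median of -0.55. SESN2, a stress-induced brake on the growth kinase mTORC1, had 7.82, 7.05, 8.11 and 8.61 FPKM in the controls, 16.2 and 16.4 with BETi-211 and 2.13 and 2.24 with BETd-246 (log2 difference -2.44 ± 0.05, adjusted p = 1.34e-14). PLK2, a polo-like kinase, was below its controls of 41.4 to 49.1 FPKM with both compounds, at 29.3 and 29.1 with the inhibitor and 7.83 and 8.17 with the degrader (log2 difference -1.75 ± 0.06). BTG2, an antiproliferative gene, had 4.69 to 5.44 FPKM in the controls, 7.07 and 6.75 with the inhibitor and 1.58 and 1.41 with the degrader. Of 22 integrated stress and unfolded protein response genes measured, 15 were called lower (68.2%, against 22.3% of all genes), 10 of them by 2-fold or more, and 0 higher in limma (2 at an unadjusted p below 0.05). PPP1R15B, a subunit of the phosphatase that restarts translation, had 34.4, 35.7, 35.1 and 34.7 FPKM in the controls, 34.3 and 34.2 with BETi-211 and 9.68 and 9.70 with BETd-246 (log2 difference -1.72 ± 0.04). CEBPB, a transcription factor of stress and inflammation, had 27.03 to 32.04 FPKM in the controls, 26.0 and 26.9 with the inhibitor and 7.99 and 7.91 with the degrader (log2 difference -1.62 ± 0.05). With the inhibitor both lay just below the controls (log2 -0.03, adjusted p = 0.578, and -0.16, adjusted p = 0.00967), and with the degrader far below them.

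Heat shock proteins and their helpers were called lower in 10 of 20 (50%, against 22.3% of all genes) and higher in 1, with 0 higher in limma without BETi-211 replicate 1 and 2 without BETi-211 replicate 2 or either DMSO library (3 with all libraries at an unadjusted p below 0.05). HSPA1B, a stress-inducible HSP70, had 36.5, 32.6, 42.7 and 41.6 FPKM in the controls, 84.8 and 83.1 with BETi-211 and 29.9 and 30.4 with BETd-246 (log2 difference -1.45 ± 0.11, adjusted p = 1.02e-08). It is nearly identical to HSPA1A, so the split of reads between the copies is uncertain. DNAJB1, an HSP40 co-chaperone, had 81.4 to 89.3 FPKM in the controls, 128 and 128 with the inhibitor and 47.0 and 47.9 with the degrader (log2 difference -1.42 ± 0.05). BAG3, which hands clients from HSP70 to autophagy, had 10.3 to 13.2, then 17.05 and 17.03, then 7.79 and 7.62 FPKM in the same order (log2 difference -1.05 ± 0.05). All 3 were above every control with the inhibitor and below every control with the degrader.

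CDKN1A, which encodes the cell cycle inhibitor p21, had 25.5, 25.6, 28.1 and 28.7 FPKM in the controls, 65.5 and 68.9 with BETi-211 and 25.2 and 26.1 with BETd-246 (log2 difference -1.35 ± 0.07, adjusted p = 8.48e-11). The inhibitor libraries stood above all others and the degrader libraries overlapped the controls, from which the degrader did not differ in the test (log2 -0.07, adjusted p = 0.369). CDKN1B, which encodes p27, was below its controls of 10.2 to 11.6 FPKM with both compounds, at 8.73 and 8.02 with the inhibitor and 3.67 and 3.43 with the degrader (log2 difference -1.04 ± 0.08). CDKN2B, which encodes p15, had 16.5 to 17.04 FPKM in the controls, 19.4 and 20.5 with the inhibitor and 11.8 and 12.1 with the degrader (log2 difference -0.69 ± 0.04). Of 8 measured CDK inhibitor genes, 4 were called lower and 2 higher. Among 14 G1 cyclins, CDKs and E2F genes, 5 were called lower and 7 higher (4 higher without BETi-211 replicate 1). CCNE2, a cyclin of S phase entry, had 35.0 to 42.1 FPKM in the controls, 54.2 and 54.3 with BETi-211 and 22.6 and 25.2 with BETd-246 (log2 difference -1.15 ± 0.08). CDC25A, a phosphatase that activates CDKs, was below its controls of 8.11 to 8.96 FPKM with both compounds, at 5.03 and 5.19 with the inhibitor and 2.34 and 2.33 with the degrader (log2 difference -0.87 ± 0.06).

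Genes of mitosis differed little between the compounds. Of 22 measured mitotic kinases, cyclins and kinesins, 7 were called higher (31.8%, against 24.2% of all genes) and 1 lower, with a median log2 difference of 0.01 that became -0.06 under quantile normalization. The higher calls fell to 3 without BETi-211 replicate 1 or BETd-246 replicate 2, and the 1 lower call to 0 in limma without BETi-211 replicate 1 or BETd-246 replicate 1 (1 lower with all libraries at an unadjusted p below 0.05). Against the controls, 20 of the 22 were called lower with each compound, beside 30.9% (BETi-211) and 32.4% (BETd-246) of all genes. PLK4, the kinase of centriole duplication, had 15.3, 16.2, 14.7 and 14.8 FPKM in the controls, 7.67 and 7.45 with BETi-211 and 8.86 and 8.75 with BETd-246 (log2 difference 0.20 ± 0.05, adjusted p = 0.00587). BUB1B, a checkpoint kinase, had means of 37.4, 26.1 and 31.4 FPKM in the controls, BETi-211 and BETd-246 (log2 difference 0.26 ± 0.04). Of 23 homologous recombination and Fanconi genes, 6 were called lower and 4 higher (2 when either BETi-211 library or BETd-246 replicate 2 was left out). PALB2, the partner of BRCA2, was among the lower ones, with means of 6.80, 4.13 and 2.79 FPKM in the same order (log2 difference -0.44 ± 0.04).

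The ID genes, abundant in the controls, were low with the degrader. ID1 had 262, 233, 252 and 262 FPKM in the controls, 318 and 347 with BETi-211 and 61.4 and 61.8 with BETd-246 (log2 difference -2.41 ± 0.07, adjusted p = 9.54e-14). ID3 had 318, 269, 303 and 324 FPKM in the controls, 274 and 292 with the inhibitor and 53.7 and 56.2 with the degrader (log2 difference -2.34 ± 0.07, adjusted p = 1.29e-13). Both are targets of BMP signals. The inhibitor lay above all controls in ID1 and within their range in ID3, and the degrader lay far below in both. Of 17 ID and TGF-beta or BMP feedback genes, 9 were called lower, 7 of them by 2-fold or more, and 4 higher. Of 6 transcription factors of the mesenchymal state, 2 were called lower and 3 higher (1 higher without BETi-211 replicate 1 or BETd-246 replicate 2). SNAI2 had 39.3, 40.1, 41.4 and 43.3 FPKM in the controls, 25.5 and 25.7 with BETi-211 and 8.63 and 7.75 with BETd-246 (log2 difference -1.53 ± 0.04). SNAI1 had 12.6 to 15.8, then 11.9 and 13.1, then 3.08 and 3.13 FPKM in the same order (log2 difference -1.72 ± 0.12). ZEB2 went the other way, with 15.9, 15.98, 13.3 and 14.2 FPKM in the controls, 7.38 and 7.78 with BETi-211 and 12.9 and 13.5 with BETd-246 (log2 difference 0.73 ± 0.06, adjusted p = 3.98e-08). SNAI2 was lowest with the degrader and ZEB2 lowest with the inhibitor.

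Notch pathway genes were called lower in 6 of 13 and higher in 2 (1 without BETi-211 replicate 1 or BETd-246 replicate 2). LFNG, a glycosyltransferase that tunes Notch, had 27.3, 22.02, 26.7 and 26.9 FPKM in the controls, 86.6 and 87.1 with BETi-211 and 15.4 and 16.6 with BETd-246 (log2 difference -2.37 ± 0.09, adjusted p = 2.73e-12). The ligand gene DLL4 had 0.461, 0.348, 0.423 and 0.469 FPKM in the controls, 4.93 and 5.15 with the inhibitor and 0.360 and 0.411 with the degrader (log2 difference -2.12 ± 0.06). DLL4 was low in every library but the 2 with BETi-211. The receptor gene NOTCH1 had 2.09 to 2.76, then 4.04 and 4.23, then 1.11 and 1.21 FPKM in the same order (log2 difference -1.25 ± 0.08).

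Of 19 NF-kB and cytokine genes, 9 were called lower and 5 higher (3 higher without BETi-211 replicate 1). NFKBIE, an inhibitor of NF-kB, had 4.66, 3.79, 4.85 and 4.39 FPKM in the controls, 12.5 and 13.2 with BETi-211 and 2.21 and 2.33 with BETd-246 (log2 difference -2.08 ± 0.07, adjusted p = 7.30e-13). NFKBIA, another inhibitor of NF-kB, was below its controls of 44.6 to 45.8 FPKM with both compounds, at 33.8 and 37.2 with the inhibitor and 19.5 and 19.6 with the degrader (log2 difference -0.83 ± 0.06). Of 23 interferon response genes, 6 were called lower and 7 higher (3 higher without BETi-211 replicate 1, 4 without BETd-246 replicate 2). IRF7, a factor of interferon production, had 4.76, 3.43, 5.41 and 5.23 FPKM in the controls, 13.2 and 12.9 with BETi-211 and 4.67 and 4.98 with BETd-246 (log2 difference -1.27 ± 0.09), with degrader and control libraries overlapping. IRF1 was below its controls of 22.3 to 24.3 FPKM with both, at 13.1 and 12.4 with the inhibitor and 5.12 and 4.97 with the degrader (log2 difference -1.18 ± 0.05). Of 20 sterol synthesis genes, 9 were called lower (5 without BETi-211 replicate 2 or BETd-246 replicate 1) and 2 higher, with 0 higher in limma without BETi-211 replicate 1 or BETd-246 replicate 2 and 1 without BETd-246 replicate 1 (2 higher with all libraries at an unadjusted p below 0.05).

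Zinc finger genes, many of which encode DNA-binding repressors, were mostly lower with the degrader. Of 415 measured genes whose symbols start with ZNF, 272 were called lower with BETd-246 (65.5%) and 40 higher (9.64%), against 22.3% and 24.2% of all genes. The higher calls were 22 without BETi-211 replicate 1 and 26 without BETd-246 replicate 2. A fold of 2 was passed by 87 lower genes, and the median log2 difference was -0.45. Against the controls, 353 were called lower and 3 higher with BETd-246, and 219 lower and 75 higher with BETi-211. Over all genes, 32.4% were lower and 19% higher than the controls with BETd-246, and 30.9% lower and 14.9% higher with BETi-211. ZNF14 had 7.26, 8.04, 8.70 and 7.80 FPKM in the controls, 11.7 and 11.96 with BETi-211 and 1.37 and 1.32 with BETd-246 (log2 difference -2.45 ± 0.06, adjusted p = 2.87e-14). ZNF440 had 14.4 to 15.5, then 25.9 and 25.6, then 6.28 and 6.31 FPKM in the same order (log2 difference -1.88 ± 0.05). Both were above all controls with the inhibitor and below them with the degrader. Many ZNF genes are close copies of each other, so the split of reads among them is uncertain. Of 35 ZBTB genes, 18 were called lower and 7 higher, and ZBTB5 stood at 11.1 and 10.3 FPKM with the inhibitor, around controls of 10.2 to 10.8, and at 2.44 and 2.34 with the degrader (log2 difference -1.78 ± 0.05). Of 12 KLF genes, 8 were called lower (5 without BETd-246 replicate 2) and 2 higher (1 without BETi-211 replicate 1). KLF5 had 3.99 to 4.60 FPKM in the controls, 6.35 and 6.38 with BETi-211 and 1.14 and 1.16 with BETd-246 (log2 difference -1.78 ± 0.07).

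**Figure D3:**
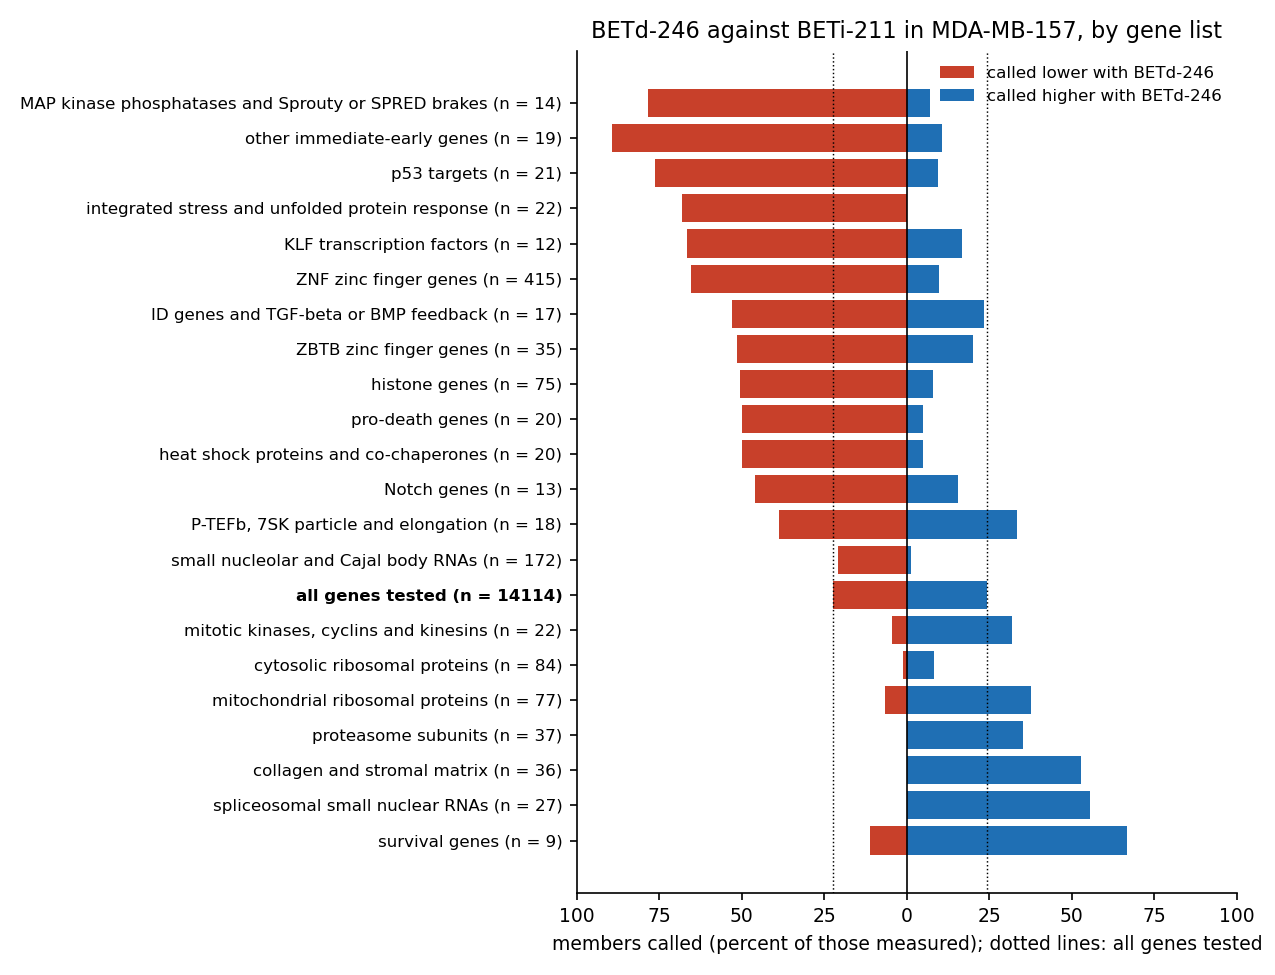
Share of measured members of 21 gene lists called lower (red, to the left) or higher (blue, to the right) with BETd-246 than with BETi-211, in percent, with all 14114 genes in bold and as dotted lines. Signal brakes, immediate-early genes, p53 targets, stress response genes, KLF genes and ZNF genes reach 65.5% or more on the left, while survival genes, small nuclear RNAs and collagen genes reach 52.8% or more on the right.

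Genes at least 2-fold lower with the degrader had shorter median spans than protein-coding genes as a whole. Among protein-coding genes found in the GENCODE annotation, the 536 that were at least 2-fold lower had a median genomic span of 16.6 kb and a median of 5 exons, against 33.2 kb and 9 exons over all 12046. Of the 536, 34.3% spanned under 10 kb, against 18.7% of all. The share of genes at least 2-fold lower was 9.55% among the 995 genes under 5 kb, 4.77% among the 2475 genes of 20 to 40 kb and 0.924% among the 1190 genes of 160 kb or more. The share called higher had no such order, at 18.6% under 5 kb, 29.6% from 40 to 80 kb and 24.4% at 160 kb or more. The 536 genes had a median control level of 7.69 FPKM, against 12.3 FPKM over all protein-coding genes, and whether level or span goes with the difference was not tested.

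**Figure D4:**
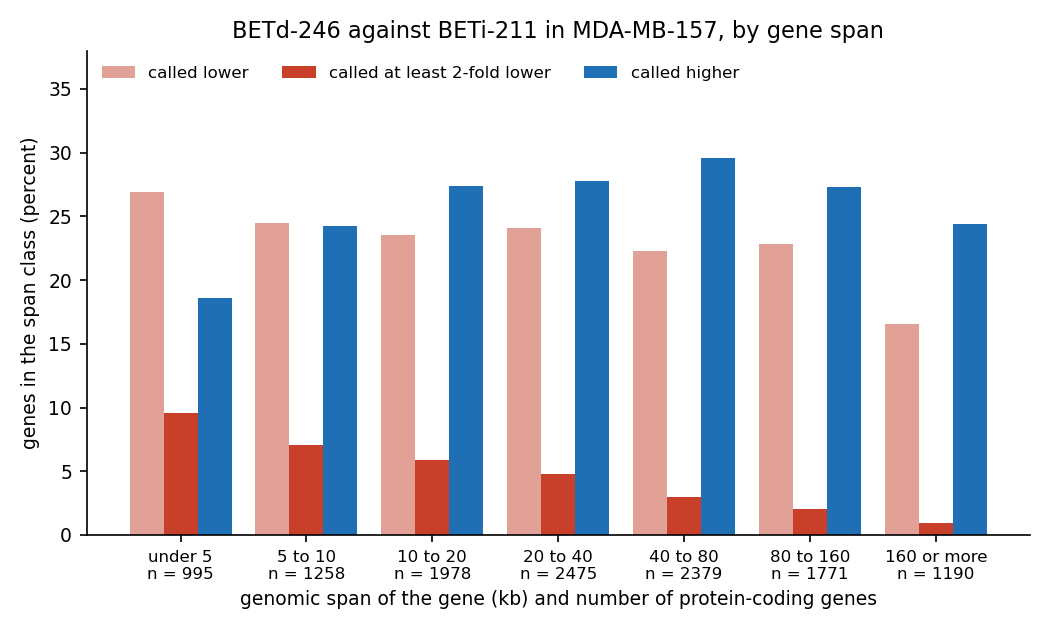
Percent of protein-coding genes called lower, called at least 2-fold lower and called higher with BETd-246 than with BETi-211, in 7 classes of genomic span (kb). The dark red bars fall from 9.55% in the shortest class to 0.924% in the longest, while the blue bars stay between 18.6% and 29.6%.

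Small nuclear RNAs of the spliceosome were the group furthest above the inhibitor. Of 27 measured copies, 15 were called higher with BETd-246 (55.6%, against 24.2% of all genes), 10 of them by 2-fold or more, and 0 lower in limma (0 also at an unadjusted p below 0.05, and 2 without BETi-211 replicate 2), with a median log2 difference of 0.79. RNU4ATAC, the U4atac RNA of the minor spliceosome (chr2:121530881-121531007, GRCh38), had 6.45, 7.94, 8.81 and 9.26 FPKM in the controls, 14.9 and 14.3 with BETi-211 and 75.3 and 76.0 with BETd-246 (log2 difference 2.30 ± 0.16, adjusted p = 5.29e-09). RNU12, the U12 RNA of the minor spliceosome, had 2.10, 1.34, 1.74 and 1.19 FPKM in the controls, 2.60 and 2.07 with BETi-211 and 7.67 and 7.49 with BETd-246 (log2 difference 1.37 ± 0.14). RNU5B-1, a copy of the U5 RNA, had 6.38, 5.34, 5.54 and 4.61 FPKM in the controls, 7.64 and 3.88 with BETi-211 and 28.8 and 25.9 with BETd-246 (log2 difference 2.12 ± 0.28, adjusted p = 1.35e-05). Degrader libraries lay above all others in the 3 RNAs. The other U5 copies RNU5E-1, RNU5A-1 and RNU5D-1 had log2 differences of 1.79 ± 0.19, 1.62 ± 0.16 and 1.55 ± 0.29. A U3 copy at chr17:58631641-58631836, a small nucleolar RNA, had 11.04 to 13.1 FPKM in the controls, 14.4 and 12.95 with BETi-211 and 51.2 and 52.7 with BETd-246 (log2 difference 1.85 ± 0.12). CTD-3014M21.1, an unconfirmed transcript at chr17:43360041-43361361, had 10.2 to 11.7, then 12.7 and 11.5, then 48.5 and 49.2 FPKM in the same order (log2 difference 1.93 ± 0.08). RP11-386I14.4, an antisense gene at chr1:78004346-78004554, had 1.05 to 2.09, then 1.999 and 1.36, then 17.1 and 19.5 FPKM (log2 difference 2.86 ± 0.20), the highest difference of all genes. In these 3 the degrader libraries lay above all others and the inhibitor libraries overlapped the controls.

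These RNAs are short and many come in near-identical copies, so their levels are uncertain, and the kit does not mark strand, so reads of an antisense gene and its partner cannot be told apart. Small nuclear RNAs made up 0.0443% to 0.0845% of the FPKM sum in the controls, then 0.0514% to 0.0973% (BETi-211) and 0.106% to 0.121% (BETd-246), and the part of this share in the differences was not tested. Without BETi-211 replicate 1, 1 of the 2 libraries rich in small RNA, 14 of the 27 small nuclear RNAs were called higher and 0 lower. Small nucleolar and Cajal body RNAs, which guide the modification of other RNAs, had a negative median difference. Of 172 measured, 36 were called lower (20.9%, near the 22.3% of all genes), 22 of them by 2-fold or more, and 2 higher (1.16%, against 24.2%), with a median of -0.36. Without BETi-211 replicate 1 the counts were 28 lower and 4 higher and the median was -0.135. Without BETi-211 replicate 2 the counts were 51 lower and 4 higher and the median was -0.573, and without BETd-246 replicate 2 they were 28 and 3 with a median of -0.235. The higher calls were also 4 when either DMSO library was left out. SNORD14D had 6.86, 6.64, 7.58 and 7.01 FPKM in the controls, 22.02 and 12.7 with BETi-211 and 3.76 and 2.31 with BETd-246 (log2 difference -2.16 ± 0.20, adjusted p = 2.18e-07). Of the 25 genes that host small nucleolar RNAs, 6 were called lower (24%, near the 22.3% of all genes) and 0 higher in limma (2 at an unadjusted p below 0.05), and SNHG12 had 11.1 to 13.1 FPKM in the controls, 23.4 and 21.4 with BETi-211 and 9.55 and 8.20 with BETd-246 (log2 difference -1.25 ± 0.12).

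Histone genes were called lower in 38 of 75 (50.7%, against 22.3% of all genes) and higher in 6 (8%, against 24.2%, with 3 without BETi-211 replicate 1, BETi-211 replicate 2 or BETd-246 replicate 2). HIST2H4B had 5.77, 5.68, 7.49 and 7.78 FPKM in the controls, 30.5 and 30.1 with BETi-211 and 8.96 and 8.20 with BETd-246 (log2 difference -1.71 ± 0.09, adjusted p = 9.70e-11). HIST3H2A had 24.4 to 26.7 FPKM in the controls, 53.3 and 57.1 with BETi-211 and 27.7 and 28.5 with BETd-246 (log2 difference -0.95 ± 0.04). Both stood out with the inhibitor, and the degrader libraries lay just above the controls. Histone genes also come in close copies, which makes the split of reads uncertain.

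Apart from EGR1 and ARC, every protein-coding gene called higher differed by less than 2-fold on the log2(FPKM + 1) scale. On FPKM itself, low genes such as GMEB1 below can pass a fold of 2. With a pseudocount of 0.1, genes of any type called at least 2-fold higher numbered 46, against 21. The median log2 difference of the 3415 higher genes from the controls was -0.17 with BETi-211 and 0.07 with BETd-246. GMEB1, a factor that modulates glucocorticoid responses, had 7.29, 7.37, 6.82 and 6.66 FPKM in the controls, 2.18 and 2.36 with BETi-211 and 4.78 and 5.26 with BETd-246 (log2 difference 0.88 ± 0.08, adjusted p = 2.41e-07). RIN2, an effector and activator of the endosomal GTPase RAB5, had 14.8, 15.1, 13.2 and 13.9 FPKM in the controls, 5.77 and 5.42 with BETi-211 and 10.7 and 11.5 with BETd-246 (log2 difference 0.87 ± 0.05, adjusted p = 3.60e-10). In both, the degrader lay between the inhibitor and the controls. PDGFRB, a receptor of platelet-derived growth factor, had 52.9, 49.5, 49.0 and 52.8 FPKM in the controls, 39.3 and 40.6 with the inhibitor and 55.6 and 57.8 with the degrader (log2 difference 0.50 ± 0.05), so the degrader lay above all controls and the inhibitor below them. CYB561, a cytochrome of secretory vesicles, had 17.1 to 18.9 FPKM in the controls, 13.4 and 13.5 with BETi-211 and 19.4 and 19.8 with BETd-246 (log2 difference 0.51 ± 0.03). CCDC84 had 4.52 to 4.92, then 4.30 and 3.35, then 6.05 and 5.83 FPKM (log2 difference 0.53 ± 0.11). Of 18 receptor tyrosine kinases, 7 were called higher (38.9%, against 24.2% of all genes) and 2 lower (11.1%, against 22.3%, and 1 lower without BETi-211 replicate 1 or BETd-246 replicate 1). KIT had 24.9 to 30.6 FPKM in the controls, 18 and 18.1 with the inhibitor and 25.6 and 26.8 with the degrader (log2 difference 0.51 ± 0.05), and FGFR3 went the other way, with 1.98 to 2.29, then 4.66 and 4.82, then 1.71 and 1.92 FPKM (log2 difference -1.03 ± 0.06).

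Several matrix and housekeeping groups had small positive medians, and the number of their calls moved with the scaling and with single libraries. Collagen and stromal matrix genes were called higher in 19 of 36 (52.8%, against 24.2% of all genes) and lower in 0 in limma (1 at an unadjusted p below 0.05), with a median of 0.16. Their higher calls were 10 without BETi-211 replicate 1, 11 without BETd-246 replicate 2, 9 with a pseudocount of 0.1 and 15 to 27 across the scalings. COL3A1, a fibrillar collagen, had 372, 345, 342 and 357 FPKM in the controls, 357 and 357 with BETi-211 and 412 and 421 with BETd-246 (log2 difference 0.22 ± 0.04, adjusted p = 0.000285), so the degrader lay above all other libraries. HAS2, which makes hyaluronan, had 4.79 to 7.01 FPKM in the controls, 1.13 and 1.22 with BETi-211 and 2.05 and 1.83 with BETd-246 (log2 difference 0.43 ± 0.05). HAS2 was thus below its controls with both compounds and lowest with the inhibitor. Of 7 mesenchymal markers 4 were called higher (2 without BETi-211 replicate 1 or BETd-246 replicate 2) and 0 lower in limma (0 also at an unadjusted p below 0.05), of 7 endothelial and fibroblast markers 5 and 1, and both measured immune markers, CD14 and CSF1R, were called higher with all libraries, 1 of them without BETi-211 replicate 2 or BETd-246 replicate 2 and 0 in limma without BETi-211 replicate 1 or BETd-246 replicate 1 (both at an unadjusted p below 0.05 with all libraries). With a pseudocount of 0.1, the higher calls among the mesenchymal, the endothelial and fibroblast and the immune markers were 1, 2 and 0. The part of other cell types in these differences was not tested.

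Mitochondrial ribosomal protein genes were called higher in 29 of 77 (37.7%, against 24.2% of all genes) and lower in 5 (6.49%, against 22.3%), with a median of 0.15, with 15 higher without BETi-211 replicate 1, 17 without BETd-246 replicate 2 and 3 lower without BETi-211 replicate 1 or BETd-246 replicate 1. MRPL19 had 38.3 to 39.7 FPKM in the controls, 32.3 and 31.8 with BETi-211 and 41.7 and 41.3 with BETd-246 (log2 difference 0.36 ± 0.05, adjusted p = 9.01e-06). Proteasome subunits were called higher in 13 of 37 (35.1%, against 24.2% of all genes) and lower in 0 in limma (0 also at an unadjusted p below 0.05), with 7 higher without BETi-211 replicate 1 and 6 without BETd-246 replicate 2. PSMD11, a subunit of the proteasome lid, had 48.7 to 51.1 FPKM in the controls, 43.8 and 44.0 with BETi-211 and 50.0 and 49.1 with BETd-246 (log2 difference 0.17 ± 0.03). Cytosolic ribosomal protein genes were called higher in 7 of 84 (8.33%, below the 24.2% of all genes) and lower in 1 (1.19%, against 22.3%), with 2 higher without BETi-211 replicate 1, BETi-211 replicate 2 or BETd-246 replicate 1, 1 without BETd-246 replicate 2 and 5 to 67 across the scalings. Nuclear genes of the respiratory chain were called higher in 18 of 78 (23.1%, near the 24.2% of all genes) and lower in 2 (2.56%, against 22.3%), with 6 and 5 higher without BETi-211 replicate 1 and 2, 8 and 3 without BETd-246 replicate 1 and 2, 1 lower without all of these but BETi-211 replicate 2, and 12 to 59 across the scalings. Lysosome and autophagy genes were called higher in 10 of 24 (41.7%, against 24.2% of all genes) and lower in 4 (16.7%, against 22.3%), with 2 higher and 1 lower without BETi-211 replicate 1 or BETd-246 replicate 2, and 6 higher and 1 or 2 lower without BETi-211 replicate 2 or BETd-246 replicate 1. TFE3, a transcription factor of lysosome genes, had 34.1 to 37.0 FPKM in the controls, 27.4 and 29.3 with BETi-211 and 38.3 and 38.8 with BETd-246 (log2 difference 0.43 ± 0.04). With MDA-MB-157 fitted alone, the higher calls were 55 of 84 cytosolic ribosomal protein genes and 51 of 78 nuclear respiratory chain genes. They were then 40 for mitochondrial ribosomal protein genes, 19 for proteasome subunits and 10 for lysosome and autophagy genes. The medians were the same in that fit, so these counts depended on which lines gave the spread. The medians of these groups were 0.14 to 0.16, and median-of-ratios scaling moved the median of all genes from 0.04 to 0.11.

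Of 17 SR proteins and CLK kinases, 7 were called higher (41.2%, and 4 without BETd-246 replicate 2) and 7 lower (41.2%), against 24.2% and 22.3% of all genes. CLK1, which phosphorylates SR proteins, had 24.02, 26.3, 22.8 and 22.6 FPKM in the controls, 24.8 and 23.9 with BETi-211 and 7.29 and 7.01 with BETd-246 (log2 difference -1.64 ± 0.08, adjusted p = 9.03e-11), while SRSF4 was higher by 0.30 ± 0.04. Of 48 Mediator and RNA polymerase II genes, 12 were called higher (7 without BETi-211 replicate 1, 5 without BETd-246 replicate 2) and 12 lower, 25% each way and near the 24.2% and 22.3% of all genes. MED9 was below its controls of 13.5 to 14.04 FPKM with both compounds, at 6.49 and 6.28 with the inhibitor and 2.42 and 2.34 with the degrader (log2 difference -1.13 ± 0.06). MED26, the Mediator subunit that docks elongation factors, had 2.65 to 3.61 FPKM in the controls, 5.21 and 5.36 with the inhibitor and 1.21 and 1.16 with the degrader (log2 difference -1.52 ± 0.08). Of 25 nucleolar ribosome biogenesis genes, 6 were called lower (24%, near the 22.3% of all genes, and 3 without BETi-211 replicate 2) and 5 higher (20%, near 24.2%, with 2 when either BETi-211 library was left out, 1 without BETd-246 replicate 2), and of 19 YAP and TEAD targets 5 were called lower and 8 higher (5 when either BETi-211 library was left out). NUAK2, a kinase induced by YAP, had 7.29 to 8.11 FPKM in the controls, 7.59 and 7.36 with BETi-211 and 1.68 and 1.69 with BETd-246 (log2 difference -1.66 ± 0.05). TGFB2, a TGF-beta ligand, went the other way, with 27.3 to 31.5, then 21.2 and 21.2, then 28.9 and 30.5 FPKM (log2 difference 0.47 ± 0.04).

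Differences between the lines were tested on the difference between the compounds itself. In MDA-MB-231, 635 genes were called at least 2-fold lower (4.5%) and 39 at least 2-fold higher (0.276%) with the degrader, and in MDA-MB-468 699 (4.95%) and 37 (0.262%), so large negative differences outnumbered large positive ones in all 3 lines. The size of the difference was called different from MDA-MB-231 in 1684 genes (11.9%) and from MDA-MB-468 in 2043 (14.5%). ZNF597 was expressed in MDA-MB-157, with 3.53, 4.05, 4.14 and 3.93 FPKM in its controls, 5.06 and 4.80 with BETi-211 and 0.816 and 0.791 with BETd-246. Its control mean was 0.0127 ± 0.00447 FPKM in MDA-MB-231, against 0.0379 ± 0.00781 in MDA-MB-468 (SD, n = 4), beside line differences of -1.72 ± 0.07 and -1.72 ± 0.07. RP11-394O4.5 was likewise near 0 in the other lines, at 6.58 to 10.8 FPKM in the MDA-MB-157 controls and 0.0792 ± 0.0389 (MDA-MB-231) and 0.0561 ± 0.0186 (MDA-MB-468) in the others (SD, n = 4). FBXO33 was the reverse case, listed at 0 in all 8 MDA-MB-157 libraries, and the MDA-MB-231 libraries had 15.4 and 14.1 FPKM with BETi-211 and 3.13 and 4.10 with BETd-246.

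METRNL and CDKN1C were expressed in all 3 lines and differed in their control level. METRNL, a secreted protein, had 66.6, 54.1, 65.1 and 66.4 FPKM in the MDA-MB-157 controls, 81.9 and 88.3 with BETi-211 and 51.4 and 54.4 with BETd-246. The MDA-MB-231 libraries had 2.90 ± 0.402 FPKM in the controls (SD, n = 4), 15.4 and 15.1 with BETi-211 and 2.12 and 2.27 with BETd-246, and the line difference was 1.67 ± 0.12 (adjusted p = 2.49e-07). Against MDA-MB-468 it was 1.51 ± 0.12 (adjusted p = 5.01e-07). CDKN1C, which encodes the CDK inhibitor p57, had 13.2, 11.3, 11.7 and 12.2 FPKM in the MDA-MB-157 controls, 10.04 and 9.88 with BETi-211 and 10.4 and 11.1 with BETd-246. Its MDA-MB-231 controls stood at 2.01 ± 0.140 FPKM (SD, n = 4), with 11.01 and 10.2 with the inhibitor and 3.02 and 2.99 with the degrader, a line difference of 1.63 ± 0.13 (adjusted p = 4.53e-07). In MDA-MB-157 the compounds did not differ in the test (adjusted p = 0.391), with a 95% interval from -0.09 to 0.29, and both lay below all controls.

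EGR1 and ARC, the 2 protein-coding genes at least 2-fold higher on the log2(FPKM + 1) scale, also differed between lines. In MDA-MB-231, EGR1 had 11.8 and 11.9 FPKM with BETi-211 and 80.1 and 84.1 with BETd-246, and its difference was larger there (MDA-MB-157 minus MDA-MB-231 -1.14 ± 0.24, adjusted p = 0.00482). In MDA-MB-468 it had 17.8 and 20.4 FPKM with BETi-211 and 24.2 and 34.3 with BETd-246, and the difference was smaller there (MDA-MB-157 minus MDA-MB-468 0.99 ± 0.24, adjusted p = 0.0105). The log2 difference of ARC was 0.18 in MDA-MB-231, 0.13 in MDA-MB-468 and 1.14 in MDA-MB-157, and its line difference was 0.96 ± 0.10 (adjusted p = 9.60e-06) and 1.0 ± 0.10 (adjusted p = 5.06e-06). FOS was not called different between lines (adjusted p = 0.196 and 0.284), with line differences of -0.64 ± 0.29 and 0.53 ± 0.29. On the log2(FPKM + 1) scale, KLHL15 and SNAI1 differed further in MDA-MB-157 than in both other lines. With MDA-MB-231 first, KLHL15 did so by -1.10 ± 0.08 and -0.28 ± 0.08, and SNAI1 by -1.01 ± 0.18 and -1.38 ± 0.18. SNAI1 was low there, with control means of 0.604 FPKM (MDA-MB-231) and 0.455 FPKM (MDA-MB-468), where differences come out too small. In MDA-MB-468, KLHL15 had 13.9 and 14.6 FPKM with BETi-211 and 1.86 and 2.13 with BETd-246. The part of the lower levels in these line differences was not tested. NFKBIA was lower with the degrader in MDA-MB-157 and higher in MDA-MB-231, at 27.7 and 28.5 FPKM with BETi-211 and 35.8 and 34.5 with BETd-246, a line difference of -1.14 ± 0.08 (adjusted p = 1.09e-07). In MDA-MB-468 NFKBIA was lower with the degrader too, at 28.9 and 28.7 FPKM with BETi-211 and 24.5 and 25.6 with BETd-246. The negative difference of FGFR3 was smaller in MDA-MB-157 than in the others, with line differences of 1.20 ± 0.08 and 1.09 ± 0.08.

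**Figure D5:**
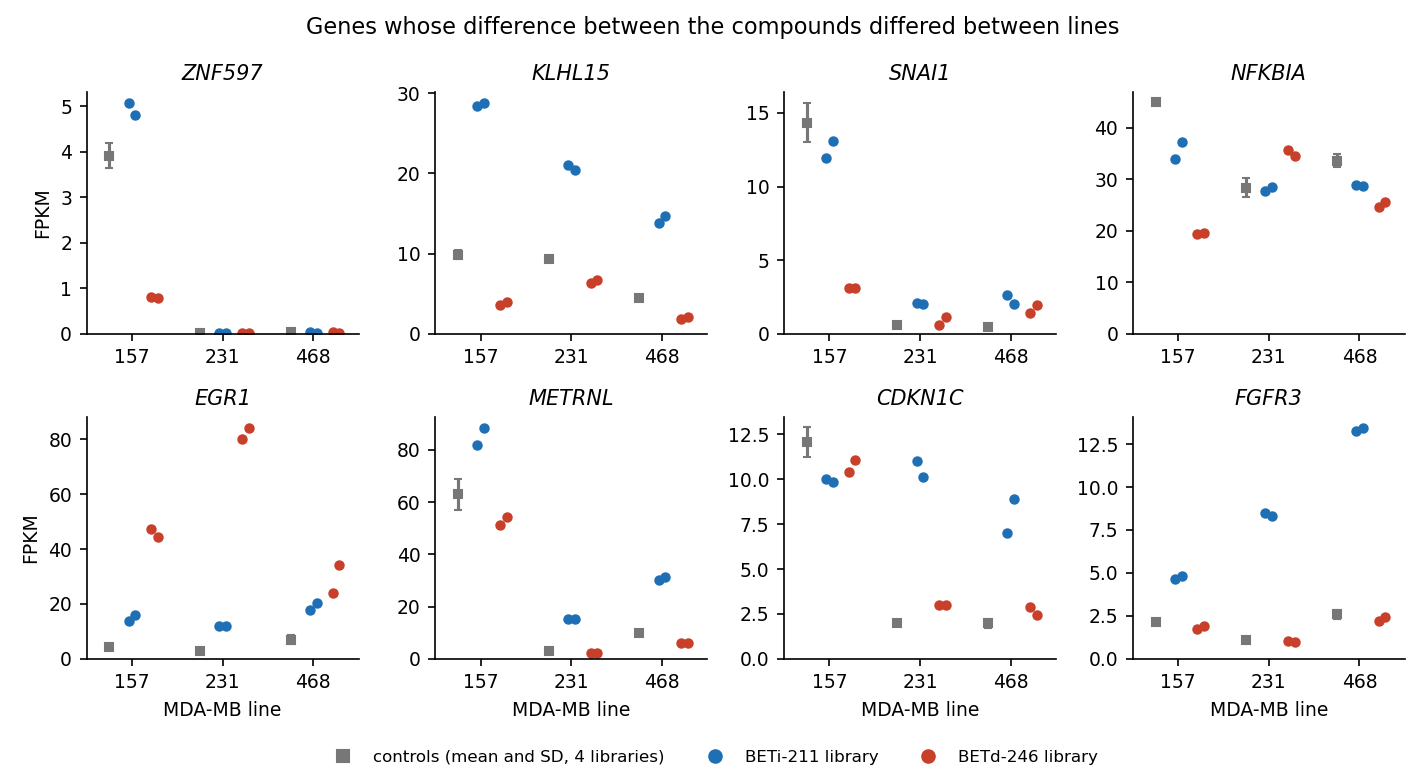
FPKM of 8 genes in the controls (grey squares, mean and SD of 4 libraries), with BETi-211 (blue, each library) and with BETd-246 (red, each library) in MDA-MB-157 and the 2 other lines, each axis from 0. ZNF597 is near 0 in 2 of the lines, METRNL and CDKN1C start from a higher control level in MDA-MB-157, and EGR1 reaches its highest level with BETd-246 in MDA-MB-231.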

How the data were processed

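Per the labels' protocols, TruSeq v2 libraries, which do not mark strand, were made from total RNA after removal of ribosomal RNA. The authors deposited 1 table of FPKM for 14114 genes and 24 libraries. Its unit is inferred from the values, since no header names it. The submitters' processing notes list bcl2fastq (2.17.1.14), Bowtie (0.12.8) and GRCh38.p5, and the program behind FPKM, its annotation and its gene filter were not given in the sources used here. No gene's highest group mean was below 1.22 FPKM. Depth was estimated from the FPKM of the lowest genes at 43.3 to 59.6 M fragments per library, and no counting interval was computed.

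From the deposited FPKM, log2(FPKM + 1) was computed and fitted in R 4.3.3 with limma 3.58.1. There were 12 groups, each with its own coefficient, over 24 libraries, and a variance trend (12 residual and 3.32 prior degrees of freedom). Tests were two-sided with Benjamini-Hochberg adjustment over 14114 genes, called below 0.05. The control level averages the coefficients of DMSO and thalidomide. The fit was tested on simulated data. GENCODE version 29 (GRCh38) gave types and spans for 13951 genes.

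The comparison, the lists and the named genes were chosen with earlier results of these data known. Named were called genes whose libraries did not overlap and whose higher compound mean reached 5 FPKM: the 10 lowest and 10 highest differences, the 6 each way among protein-coding genes, the 3 each way with opposite calls against the controls, up to 3 genes per list by adjusted p, the 3 each way with the largest line differences, and 11 genes fixed by name. Some genes that this rule named are not reported here. Other names, such as marker genes and exceptions within a list, were chosen after their values were seen. Alternatives covered the pseudocount, a filter, 4 scalings, the line fitted alone, no variance trend, a replicate block and each control alone. Each MDA-MB-157 library was left out in turn, and for line differences also each BETd-246 and BETi-211 library of the other lines.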

Additional observations from a re-analysis of the deposited data

Results flagged for a closer look

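The tests of the difference between lines called 1684 genes against MDA-MB-231 and 2043 against MDA-MB-468. Values below are log2 differences between lines, MDA-MB-157 minus the other line, of BETd-246 minus BETi-211, for named genes past a fold of 2 and called in limma. Groups of 2 libraries cannot be tested for a single deviant library.

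Called against both lines, with MDA-MB-231 first, were ZNF597 (-1.72 and -1.72), RP11-394O4.5 (-1.35 and -1.31), RNU5A-8P (-1.26 and -1.28), SNAI1 (-1.01 and -1.38), METRNL (1.67 and 1.51), CDKN1C (1.63 and 1.39), FGFR3 (1.20 and 1.09) and FBXO33 (1.78 and 2.0). FBXO33 was listed at 0 in every MDA-MB-157 library. ZNF597 and RP11-394O4.5 were near 0 in both other lines, and SNAI1 was low in them, at control means of 0.604 FPKM (MDA-MB-231) and 0.455 FPKM (MDA-MB-468). RNU5A-8P, a copy of the U5 RNA, had 1.23 and 0.701 FPKM with BETi-211 and 0.957 and 1.08 with BETd-246 in MDA-MB-157, which overlapped the controls.

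Past that fold against MDA-MB-231 alone were KLHL15 (-1.10), EGR1 (-1.14), NR4A3 (-1.26), ID3 (-1.16), NFKBIA (-1.14) and the mitochondrial tRNA gene MT-TI (-1.65). Against MDA-MB-468 alone they were ARC (1.0), MYCL (1.13), KLF4 (1.35), CLDN4 (1.60), SNORD22 (1.19), DUSP1 (-1.19), DUSP5 (-1.15), SNAI2 (-1.52) and RNU5A-1 (-1.79). SNAI2 was near 0 in MDA-MB-468 (control mean 0.00184 FPKM), so its value is nearly the MDA-MB-157 difference itself. NR4A3 was low in MDA-MB-231, with a control mean of 0.0943 FPKM and 0.962 and 0.761 FPKM with BETi-211. Differences at such levels come out too small on this scale.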

How the results depend on the processing

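The number of genes called higher was 5524 with median-of-ratios scaling, against 3415, and 1964 to 3612 when single libraries were left out, lowest without BETd-246 replicate 2. Genes at least 2-fold higher numbered 46 with a pseudocount of 0.1 and 36 after quantile normalization, against 21. Genes at least 2-fold lower numbered 934 with a pseudocount of 0.1, against 603. With libraries left out, 4736 to 6803 genes were called, 2634 to 3191 lower, 21 to 27 at least 2-fold higher and 593 to 618 at least 2-fold lower, and 1181 to 1825 and 1524 to 2184 differed from MDA-MB-231 and MDA-MB-468. Leaving out control, MDA-MB-231 or MDA-MB-468 libraries was chosen after seeing the data.

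Median-of-ratios scaling raised the higher calls by over 1.5 times in the groups of cereblon ligase genes (7), Mediator (19), ZBTB (11), interferon (12), histone (10), heat shock (5) and pro-death genes (4), stress response genes (3), small nucleolar RNAs (9) and their hosts (4). It did so too for mitochondrial ribosomal protein (46), cytosolic ribosomal protein (67) and nuclear respiratory chain genes (59) and proteasome subunits (30), among others. Quantile normalization did so for ZNF (72) and homologous recombination genes (7). Fitting MDA-MB-157 alone did so, among others, for cytosolic ribosomal protein (55), nuclear respiratory chain (51) and cereblon ligase genes (7). Column-total scaling lowered them for YAP targets (5), nucleolar genes (2), homologous recombination genes (1) and sterol genes (0 in limma, with 2 at an unadjusted p below 0.05 on the deposited values). Lower calls with median-of-ratios scaling were 5 for sterol, 2 for nucleolar and 1 for lysosome genes. A pseudocount of 0.1 left 1 higher mesenchymal transcription factor.

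With MDA-MB-157 fitted alone, 6992 genes were called, 3675 higher and 3317 lower. The replicate block gave 6520 calls, 3366 higher, 3154 lower, 21 and 604 at least 2-fold higher and lower, and line differences of 1580 and 1970 genes. The labels do not say that a shared number marks a batch, and deviations of same-numbered libraries correlated at 0.309 between the compounds and -0.241 to 0.129 between other pairs of groups (9273 genes, 2 pairs).

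Reversed was the log2 difference of RNU5A-8P between the compounds (-0.15 without BETi-211 replicate 2, to 0.25 without BETi-211 replicate 1). With 1 control alone, so were differences from the controls of RP11-386I14.4 with BETi-211 (0.11, thalidomide), RNU5B-1 and RNU5E-1 with BETi-211 (-0.074 and -0.0182, DMSO), and RNU5A-8P and CDKN1A with BETd-246 (0.0162 and 0.00774, DMSO). The cause was not tested. Of values for single genes under the alternatives, 2639 between the compounds kept direction and side of the threshold, 38 lost the call, 3 gained it and 1 reversed, and against the controls 239 kept both, 11 lost the call, 3 gained it and 5 reversed. Depth per library was only estimated, and no count test was run.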
